A study of Mus musculus with 14 samples.

Results

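The centromere-proximal 10 Mb of the 19 mouse autosomes held 631 of the 11133 DMC1 peaks of *Hells* CTRL mice and 905 of the 17117 peaks of *Hells* cKO mice, which is 1536 of 28250 peaks in all. A peak was a member when it lay on an autosome and the integer midpoint of its interval, its center, was below position 10000000 of GRCm38. It was compared with the 9766 *Hells* CTRL and 15416 *Hells* cKO peaks on the rest of the same autosomes. DMC1 coats the single-strand DNA at resected meiotic DNA double-strand breaks (DSBs), and DMC1 ChIP-SSDS (immunoprecipitation followed by sequencing of single-strand DNA) maps where they form.

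The samples were whole testes of adult mice, and the authors merged the 2 replicates of a genotype into a single final peak list. *Hells* CTRL mice were Hells fl/Δ (5 weeks old, 2 testes per replicate), and *Hells* cKO mice were Hells fl/Δ;Stra8-iCre (9 weeks old, 3 testes per replicate). Both groups thus carried 1 deleted and 1 floxed *Hells* allele, so that neither was free of a *Hells* deletion, and both express the PRDM9 Dom2 variant. The *Hells* line was made on a C57BL/6N background. The *Stra8* promoter drives the Cre transgene in male germ cells around meiotic entry, and according to the study HELLS persisted in some *Hells* cKO spermatocytes. Age and genotype cannot be told apart in these lists.

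Mouse autosomes have their centromere next to one end. It is made of satellite DNA, long arrays of near-identical units, which the assembly largely leaves out, so that each autosome opens with unassembled bases. In GRCm38 the sequence begins at 3000001 on most autosomes and at 3100001 at the latest. PRDM9 binds DNA through its zinc fingers, marks the nearby histones and thereby places DSBs at hotspots that are mostly away from promoters. The chromatin remodeler HELLS is needed for this, and without PRDM9 activity DSBs form at other sites with open, H3K4me3-marked chromatin, largely promoters. Crossovers are few beside mouse centromeres, and the sequence there is a transition between satellite heterochromatin and gene-bearing arms.

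Sequences are given for 3 kinds of proximal sites, read on the plus strand of GRCm38.p6. The first is 1 unit of the repeat at the start of chromosome 9, shown because the strongest *Hells* cKO member and the next-to-strongest *Hells* CTRL member lay on it. It is the 234 bp at chr9:3000676-3000909, at the center of the *Hells* CTRL peak of strength 1664, with its 4 CpG dinucleotides in capitals.
chr9 repeat unit: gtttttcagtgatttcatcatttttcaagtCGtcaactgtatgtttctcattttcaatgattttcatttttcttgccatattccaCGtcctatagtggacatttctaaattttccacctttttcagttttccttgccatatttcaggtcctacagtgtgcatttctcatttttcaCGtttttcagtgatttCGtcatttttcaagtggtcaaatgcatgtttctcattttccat

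The second kind is *Hells* CTRL peaks away from repeats. Capitals mark 8-base words enriched at *Hells* CTRL centers on the rest of the autosomes. Shown are 60 bp around such a word at 4 strong proximal *Hells* CTRL peaks outside tandem repeats that hold one within 100 bp of the center (chr12:3513441-3513500, strength 1197; chr15:5202145-5202204, strength 828; chr8:3320530-3320589, strength 749; chr11:3900372-3900431, strength 529). How they were chosen is given with the words below.
chr12: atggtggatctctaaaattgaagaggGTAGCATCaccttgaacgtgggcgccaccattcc
chr15: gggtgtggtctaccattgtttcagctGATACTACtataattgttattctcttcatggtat
chr8: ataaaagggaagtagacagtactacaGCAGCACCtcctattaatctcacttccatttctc
chr11: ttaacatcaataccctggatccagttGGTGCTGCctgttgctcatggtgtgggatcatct

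The third kind is *Hells* cKO peaks at start sites of genes, 3 of the 5 strongest proximal ones outside tandem repeats. Those at *Nipbl* and *Rictor*, stronger than the one at *Rpa3*, are not shown. The 100 bp at their centers are shown with CpG dinucleotides in capitals for *Mybl1* (chr1:9700263-9700362, 12 CpG), *Dbf4* (chr5:8422641-8422740, 15 CpG) and *Rpa3* (chr6:8259093-8259192, 10 CpG). *Mybl1* encodes a transcription factor that drives the male meiotic program, *Dbf4* the activator of the CDC7 replication kinase and *Rpa3* a subunit of the single-strand DNA binding complex RPA.
Mybl1: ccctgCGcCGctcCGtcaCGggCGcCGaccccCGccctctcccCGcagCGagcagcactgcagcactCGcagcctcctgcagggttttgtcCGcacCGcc
Dbf4: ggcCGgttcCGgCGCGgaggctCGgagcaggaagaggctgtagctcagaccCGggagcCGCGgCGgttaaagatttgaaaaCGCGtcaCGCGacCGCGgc
Rpa3: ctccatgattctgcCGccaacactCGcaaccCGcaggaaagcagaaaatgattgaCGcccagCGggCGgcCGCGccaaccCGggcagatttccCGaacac

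The values are the strengths that the authors deposited, a whole-number score for each peak. Since each genotype has 1 merged list, no spread between mice can be given and no test over mice was possible. The tests below are two-sided exact sign tests over the 19 autosomes, each of which gave 1 proximal value and 1 value for its rest, with Benjamini-Hochberg adjustment over 11 results. They describe where peaks lie in these 2 lists. Each share has an exact Clopper-Pearson 95% interval (CI) that holds counting error alone and treats peaks as independent, and the read depth behind the scores is unknown. Strengths were compared within a list as percentiles of its autosomal peaks, since the study states that the genotypes' signals could not be scaled to each other.

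No difference in peak density near the centromere passed the test. The proximal sequence had 132 assembled Mb, 5.52% of the assembled autosomes, with 8.35 protein-coding genes per Mb against 8.70 in the rest and a GC content of 41.6% against 42.0%. It held 6.07% of the autosomal *Hells* CTRL peaks (CI 5.62 to 6.55%) and 5.55% of the autosomal *Hells* cKO peaks (CI 5.20 to 5.91%). In *Hells* CTRL this came to 4.78 peaks per assembled Mb against 4.31, a ratio of 1.11, and the proximal density was higher on 11 autosomes and lower on 8 (exact sign test, adjusted p = 0.89). In *Hells* cKO it came to 6.85 against 6.81, a ratio of 1.01, with 9 autosomes higher and 10 lower (exact sign test, adjusted p = 1.0), and a ratio this close to 1 changed sides under several settings. With the limit at 5 Mb the ratios were 1.29 in *Hells* CTRL (15 autosomes higher, 4 lower, exact sign test, p = 0.0192, adjusted p = 0.0704) and 1.25 in *Hells* cKO (10 higher, 9 lower, adjusted p = 1.0 in the exact sign test). The *Hells* cKO ratio was below the *Hells* CTRL ratio on 14 of 19 autosomes, 0.909 times it, a difference that did not pass the test (exact sign test, p = 0.0636, adjusted p = 0.233).

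Single autosomes spread much more than these totals. The *Hells* CTRL ratio was lowest on chromosome 7 (0.524, 14 proximal peaks) and close to it on chromosomes 3 (0.525) and 1 (0.533), and highest on chromosome 17 (1.75, 50 peaks). The *Hells* cKO ratio ran from 0.336 on chromosome 14, with 15 peaks, to 1.83 on chromosome 19, with 112 peaks or 16.3 per Mb. Both of those autosomes were gene-rich near the centromere. Chromosome 19 had 227 protein-coding genes in its proximal sequence, 33.0 per Mb against 9.58 in its rest, and 96.4% of its proximal *Hells* cKO peaks had a start site within 1 kb. Chromosome 14 had 112 such genes, 16 per Mb against 6.90 in its rest, of which 7.14% had a *Hells* cKO peak at a start site, the lowest share of all autosomes, and its first peak centers came 4.82 Mb (*Hells* CTRL) and 4.77 Mb (*Hells* cKO) after the first assembled base.

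**Figure D1:**
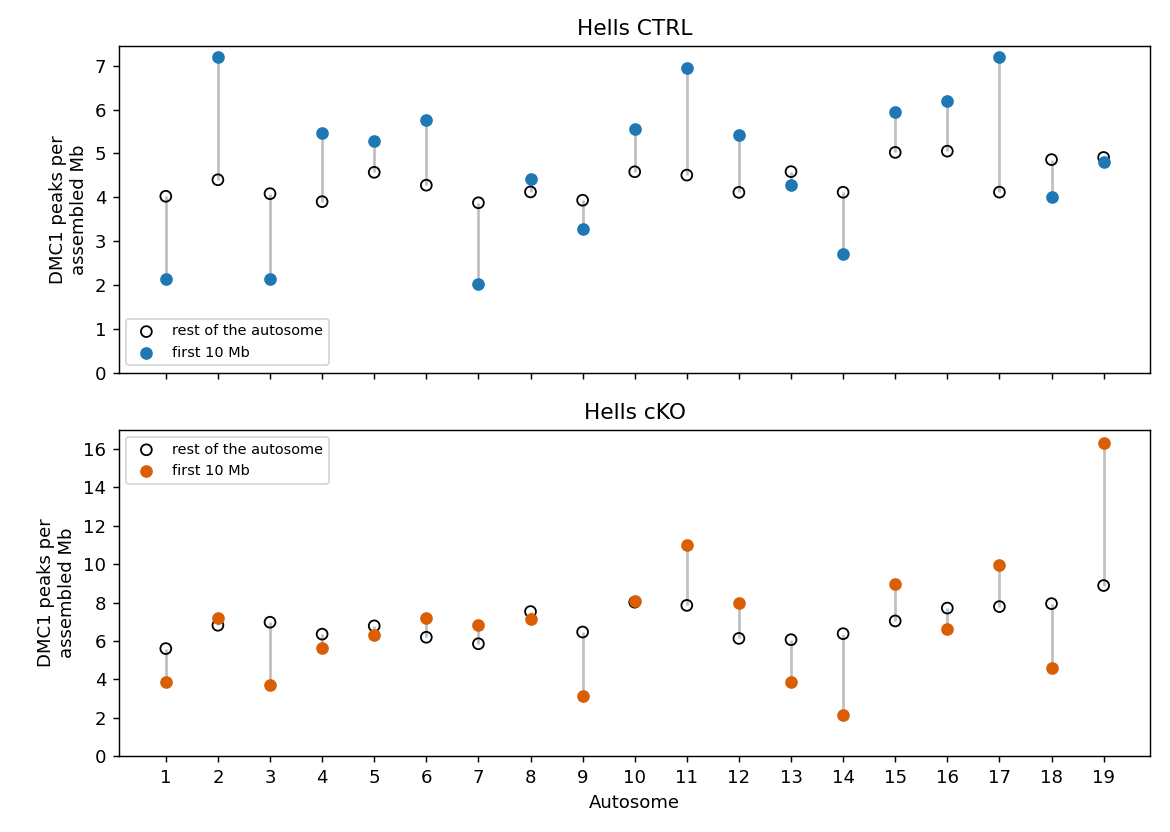
DMC1 peaks per assembled Mb on each autosome, in the first 10 Mb (filled points) and on the rest of the same autosome (open points), for *Hells* CTRL above and *Hells* cKO below. Filled points fall on both sides of the open ones in both lists, with the highest proximal value, 16.3 per Mb, on chromosome 19 in *Hells* cKO.

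Along the distance from the first assembled base, the density summed over autosomes was uneven. In bins of 1 Mb, the *Hells* CTRL density within the first 10 Mb of assembled sequence lay between 3.66 and 5.95 peaks per Mb and the *Hells* cKO density between 3.97 and 9.32. Both were highest in the second Mb and lowest in the fifth. The median strength percentile of *Hells* cKO peaks was above 50 in the first 9 of these bins and 46.2 in the last of them. These bins sum unlike autosomes, and their differences were not tested.

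**Figure D2:**
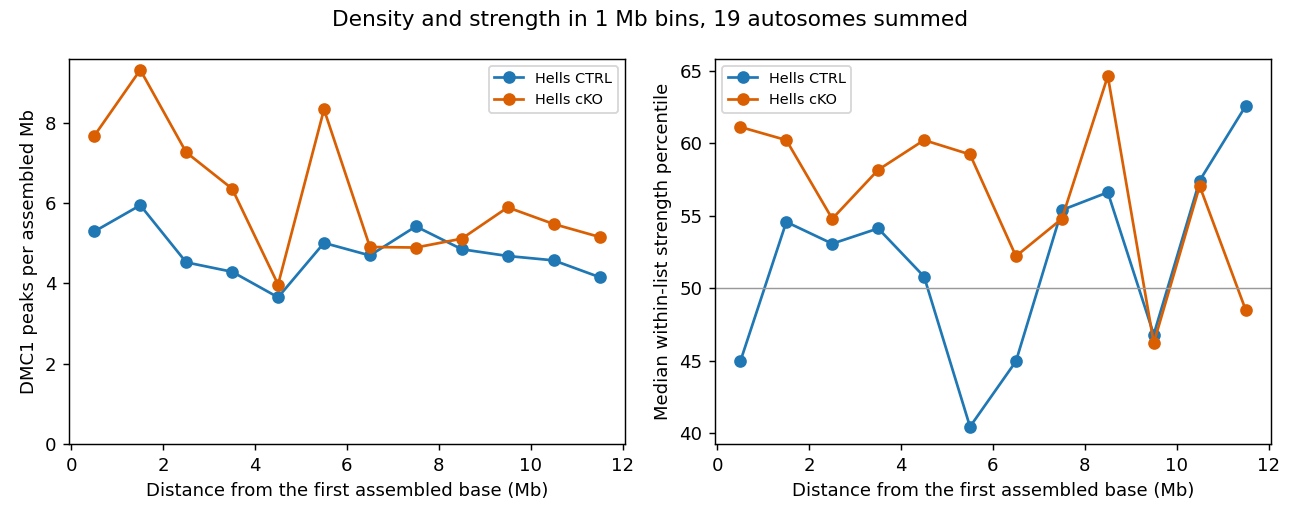
Peaks per assembled Mb (left) and median within-list strength percentile (right) in 1 Mb bins by distance from the first assembled base, summed over 19 autosomes, with *Hells* CTRL in blue and *Hells* cKO in orange. The *Hells* cKO density peaks at 9.32 per Mb in the second bin and falls to 3.97 in the fifth. Bins from 7 Mb on hold no members.

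The strength of *Hells* cKO peaks differed near the centromere. The median strength of proximal *Hells* cKO peaks was 37 (quartiles 19 and 77, range 5 to 945), against 30 in the rest (quartiles 18 and 60). Their median percentile was 58.1 against 49.3, 8.89 points higher, and it was higher on 16 autosomes and lower on 2, with no difference on chromosome 13 (exact sign test, p = 0.00131, adjusted p = 0.0144). Of the proximal *Hells* cKO peaks, 129 were at or above strength 118, the top 10% of the autosomal peaks (14.3%, CI 12.04 to 16.7%), against 9.80% in the rest. The proximal sequence thus held 6.88% of the summed *Hells* cKO strength with 5.55% of the peaks. Autosomes again varied, from -5.42 points on chromosome 3 and -1.52 on chromosome 2 to 34.04 on chromosome 9, where the 22 proximal peaks had a median strength of 91.5 and 8 of them lay on the repeat shown above.

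*Hells* CTRL peaks gave no such difference. Their median strength was 59 near the centromere (quartiles 32 and 148, range 12 to 1799) and 63 in the rest, and the median percentile was 48.0 against 50.2, 2.22 points lower, with 8 autosomes higher and 10 lower (exact sign test, adjusted p = 0.996). The difference on an autosome ran from -18.96 points on chromosome 19 to 13.6 on chromosome 18. The top 10% of the autosomal *Hells* CTRL peaks (strength 315 or more) held 54 proximal peaks (8.56%, CI 6.49 to 11.0%), against 10.1% in the rest. On 17 of 19 autosomes the *Hells* cKO difference was above the *Hells* CTRL difference, by a median of 12.03 points (exact sign test, p = 0.000729, added after the results above were seen and not adjusted with them). Leaving out 1 autosome kept this p between 0.000145 and 0.00131.

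**Figure D3:**
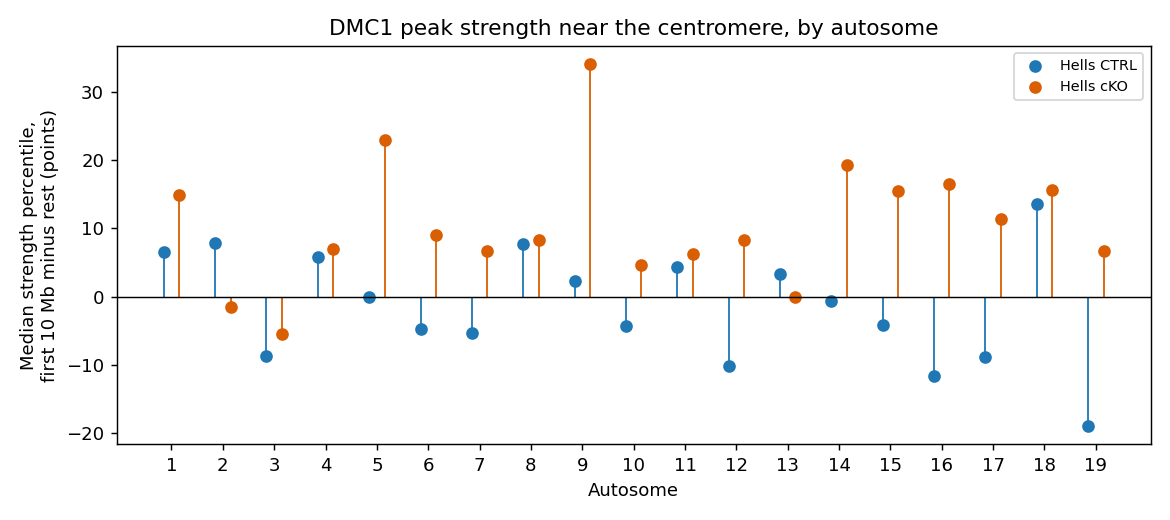
Median within-list strength percentile of proximal peaks minus that of peaks on the rest of each autosome, in percentile points, with *Hells* CTRL in blue and *Hells* cKO in orange. The *Hells* cKO points are above 0 on 16 autosomes, up to 34.04 on chromosome 9, whereas the *Hells* CTRL points scatter on both sides of 0.

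The difference in *Hells* cKO was seen at start sites. Of the proximal *Hells* cKO peaks, 609 had an annotated start site within 1 kb of the center (67.3%, CI 64.1 to 70.3%), against 61.0% in the rest, with 10 autosomes higher and 9 lower (exact sign test, adjusted p = 1.0), and without chromosome 19 the difference shrank from 6.29 to 2.04 points. With the limit at 5 Mb the share was 74.8% against 61.1% (14 autosomes higher, 3 lower, exact sign test, p = 0.0127, adjusted p = 0.0700). At 20 Mb it was 64.3% against 61.0% (10 higher, 9 lower). These 609 peaks had a median strength of 51 against 41 at start sites in the rest and a median percentile 7.78 points higher, on 17 of 19 autosomes (exact sign test, adjusted p = 0.00801). The 296 proximal *Hells* cKO peaks away from start sites had the same median strength as those in the rest, 21 (12 autosomes higher, 6 lower, adjusted p = 1.0 in the exact sign test). These splits by start site were added after the data had been seen, and the difference between them was not tested. CpG dinucleotides within 250 bp of the center, which are dense in CpG island promoters, averaged 38.7 at proximal *Hells* cKO peaks with a start site and 40.1 at those in the rest.

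In *Hells* CTRL, 72 of the 631 proximal peaks had a start site within 1 kb (11.4%, CI 9.04 to 14.2%), against 668 peaks or 6.84% in the rest (CI 6.35 to 7.36%). The share was higher on 13 autosomes and lower on 6 (exact sign test, adjusted p = 0.459), and with the limit set at 20 Mb it was 9.37% against 6.76% and passed the test (15 against 4 autosomes, exact sign test, adjusted p = 0.0423). The density of these peaks was 0.545 per Mb against 0.295, a ratio of 1.85, while that of peaks away from start sites was 4.23 against 4.02. Some start-site peaks lay at gene models on the chromosome 9 repeat. Without tandem-repeat peaks the share with a start site was 10.8% against 6.83%. The proximal *Hells* CTRL peaks at start sites had a higher mean of CpG, 17.1 against 8.65 in the rest (not tested), while their median strength, 46.5 against 59, did not pass the test (8 autosomes higher, 9 lower, exact sign test, p = 1.0). Of these 72 peaks, 14 belonged to the common peaks stronger in *Hells* cKO described below. That group had 15 members with a median of 59 CpG (range 22 to 73), which raise this mean. The mean without them was not computed. Outside the chromosome 9 repeat, the strongest start-site peaks with a named gene were at *Steap1*, a metalloreductase gene (834), and *Fam208b* (446).

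For protein-coding promoters with a *Hells* cKO peak, no difference near the centromere passed the test. Of 1104 genes with a start site in the proximal sequence, 556 had a *Hells* cKO peak within 1 kb of it (50.4%), against 45.3% of 19703 genes in the rest. The share was higher on 14 autosomes and lower on 5 (exact sign test, p = 0.0636, adjusted p = 0.233), and it ranged from 7.14% on chromosome 14 to 89.2% on chromosome 12. Without chromosome 14 the difference was 10.1 points in place of 5.08. In *Hells* CTRL, 52 of these genes (4.71%) had a peak at a start site, against 2.15% in the rest. Both counts include gene models on the chromosome 9 repeat. Without tandem-repeat peaks the *Hells* cKO share was 49.8% against 45.2%.

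The 5 strongest *Hells* cKO members were the chromosome 9 repeat peak (945) and the peaks at *Mybl1* (459), *Dbf4* (420), *Nipbl* (403) and *Rictor* (397). *Nipbl* encodes the cohesin loader and *Rictor* a subunit of the mTORC2 kinase complex. The next protein-coding genes by peak strength were *Rpa3* (386), *Usp6nl* (369), the RNA-binding protein gene *Celf2* (353), *Wac* (331) and *Akap9*, which encodes a kinase anchor of the Golgi and centrosome (320). The *Mybl1* peak (chr1:9699018-9701607) was centered 103 bp from the start site and had no *Hells* CTRL partner, whereas the *Dbf4* peak (chr5:8421473-8423908), centered 4 bp from the start site, had one of strength 48. These promoters had 44 (*Rpa3*) to 83 (*Celf2*) CpG dinucleotides within 250 bp of the center.

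On a list of genes with a role in meiosis, 7 start in the proximal sequence. All 7 had a *Hells* cKO peak at a start site, against 65 of 77 in the rest (84.4%). Besides *Mybl1* and *Rpa3* they were *Ewsr1* (117), *Hormad2*, which encodes a protein of the unsynapsed chromosome axis (91), *Gm960*, which encodes the TOPOVIBL partner of SPO11 (68), *Mcmdc2* (62) and *Majin*, which encodes a telomere attachment protein (24). Of the 7, *Gm960* alone had a *Hells* CTRL peak at a start site (23). Both *Gm960* peaks were at an annotated start site near the 3′ end of the gene, not at its 5′ end. Over all protein-coding genes the proximal share was 50.4%.

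Gene families differed widely. Of 46 proximal chemosensory receptor genes, which act mainly in sensory epithelia, 1 had a *Hells* cKO peak (*Olfr15*, strength 15), against 11 of 1424 in the rest. Of 24 zinc finger genes named Zfp, 15 had one (62.5%, against 63.7% in the rest), with strengths from 23 (*Zfp865*, *Zfp583*) to 107 (*Zfp597*). The single core histone gene, *H2afv*, had one (117), against 45 of 75 in the rest (60%). Among genes named Rpl or Rps, 6 of 7 had one, against 59 of 85 in the rest (69.4%). Ribosomal proteins proper were *Rpl37* (121), *Rps20* (70), *Rpl28* (58) and *Rps9* (35), and the other names belong to S6 kinases. Of 6 mitochondrial ribosomal protein genes 4 had one (66.7%, against 72.2% in the rest), *Mrpl15* (129), *Mrps28* (105), *Mrpl11* (55) and *Mrps24* (53). No gene of the defensin list starts in the proximal sequence.

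The strongest *Hells* CTRL members were hotspots of another kind. The first, of strength 1799 (chr12:4973005-4975398), was centered in a coding exon of *Atad2b*, 4849 bp from the start site, and had a *Hells* cKO partner of strength 55. The chromosome 9 repeat peak followed (1664). The next lay between genes at chr12:3512384-3514481 (1197, partner 34), at chr16:5844000-5846189, 40261 bp from a start site of the neuronal splicing gene *Rbfox1* (1178, partner 29), and at chr2:7636604-7638875 (1107, partner 19). All 5 thus had a *Hells* cKO partner of lower deposited strength, on scores that are not scaled between genotypes. Partners were common among strong *Hells* CTRL peaks. At strength 315 or more, 36 of 54 proximal peaks had one (66.7%), against 600 of 988 in the rest (60.7%). Below 315 it was 31 of 577 (5.37%, CI 3.68 to 7.54%) against 211 of 8778 (2.40%, CI 2.09 to 2.75%). This split by strength was not tested. Introns held 52.3% of proximal *Hells* CTRL centers, 37.9% lay between genes and 3.17% in coding exons, against 31.2%, 25.4% and 13.2% in *Hells* cKO. Exons outside coding sequence held 6.66% and 30.3%. These places were not counted on the rest of the autosomes, so the shares compare the 2 lists and not the 2 regions.

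The words printed in capitals above served to ask whether proximal *Hells* CTRL hotspots carried the sequence features of those elsewhere. They are the 20 words of 8 bases, both strands counted as 1 word and overlapping each other in part, with the highest ratio of *Hells* CTRL centers on the rest of the autosomes that hold the word within 100 bp to windows 1000 bp away. Of the proximal *Hells* CTRL peaks, 215 held at least 1 of the words (34.1%, CI 30.4 to 37.9%), against 36.4% in the rest, with 8 autosomes higher and 11 lower (exact sign test, adjusted p = 0.89). In windows 1000 bp away the shares were 9.03% and 7.96%, and at proximal *Hells* cKO centers 12.7%. The words were learned on the rest, so its share is raised by the choice. When they were learned on the other autosomes by odd and even number, an alternative added later, the shares were 35.0% and 35.9%. The leading word, GGTGCTAC, was at 19 proximal *Hells* CTRL centers (3.01%, with 3.01% in the rest) and at 5 proximal *Hells* cKO centers, and GATGCTAC, seen in reverse complement in the chr12 sequence, was at 23 and 2. Of the 10 strongest proximal *Hells* CTRL peaks outside tandem repeats and chromosome 18, 2 held a word. The 4 peaks printed above were taken as the strongest with a word under the same exclusions, not among all proximal peaks.

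A pair of peaks, 1 from each list, was called common where regions reaching 200 bp to either side of the center overlapped, which gave 67 proximal pairs. They were 10.6% of proximal *Hells* CTRL peaks (CI 8.32 to 13.3%), where 8.44% of all autosomal *Hells* CTRL peaks were called common, and 7.40% of proximal *Hells* cKO peaks (CI 5.78 to 9.31%), where 5.38% of all were. Against the rest (8.30% and 5.26%), 12 autosomes were higher and 7 lower in both lists (exact sign test, adjusted p = 0.659 in both). At a limit of 20 Mb the *Hells* cKO share passed the test (8.24% against 5.02%, 16 against 3 autosomes, exact sign test, adjusted p = 0.0122). Without the first 40 kb of chromosome 9 the shares were 9.90% and 6.91%.

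The proximal common peaks had a larger share of peaks stronger in *Hells* cKO. Grouped by log2(*Hells* CTRL/*Hells* cKO) of their strengths, which are not scaled between genotypes, 42 of the 67 were stronger in *Hells* CTRL (ratio above 1, 62.7%, CI 50.01 to 74.2%), where 86.7% of all autosomal common peaks were so called and 88.7% of those in the rest. A further 15 were stronger in *Hells* cKO (below -1, 22.4%, CI 13.1 to 34.2%), where 7.29% of all were so called and 6.04% of those in the rest (CI 4.50 to 7.91%). The other 10 were similar (14.9%, against 5.30%). The 42 peaks stronger in *Hells* CTRL had strengths of 60 to 1799 there, with a median of 460.5, and a median of 16.5 in *Hells* cKO, and 2 of them had a start site within 1 kb.

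The 15 peaks stronger in *Hells* cKO were at promoters with 1 exception. In *Hells* CTRL their strengths ran from 19 to 105 with a median of 31, and in *Hells* cKO from 155 to 420 with a median of 250. The 49 peaks of this group in the rest had medians of 30 and 274. That each peak was stronger in *Hells* cKO is fixed by the rule. On chromosome 5 there were 5, at *Dbf4* (48 in *Hells* CTRL, 420 in *Hells* cKO), *Akap9* (41, 320), the Myb-like factor gene *Dmtf1* (38, 283), the claudin gene *Cldn12* (22, 236) and *Rundc3b* (43, 227). On chromosome 2 they were at *Usp6nl*, which encodes a regulator of RAB5 (33, 369), *Suv39h2*, which encodes a histone H3K9 methyltransferase of pericentromeric heterochromatin (24, 258), and the translocon gene *Sec61a2* (23, 200). Chromosome 15 had *Cplane1*, a gene of ciliogenesis (31, 305), and *Prkaa1*, which encodes a catalytic subunit of AMPK (27, 155). Single peaks were at *Fbxo5*, which encodes an inhibitor of the anaphase-promoting complex (35, 301), *Lypla1* (19, 207), *Birc2*, which encodes an inhibitor of apoptosis (24, 200), and *Crem*, which encodes a transcription factor of spermiogenesis (24, 211). The exception lay in a coding exon of the chromatin remodeler gene *Chd7*, 11133 bp from the nearest start site (105, 250).

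These 15 were 23.4% of the 64 autosomal peaks of the group (CI 13.8 to 35.7%) in 5.52% of the assembled autosomes, 0.114 per Mb against 0.0216, a ratio of 5.24. They lay on 8 autosomes, and the density was higher near the centromere on these 8, lower on 9 and 0 in both parts on 2. Without chromosome 5 the ratio was 3.69, with 10 members left. In the first 6 windows of 10 Mb, which hold part of the group, the counts over all autosomes were 15, 12, 5, 3, 3 and 2, or 0.114, 0.0635, 0.0264, 0.0158, 0.0158 and 0.0106 per Mb, so that of these 6 the first window had the highest value and the second the next. Partners were also counted by the strength of the *Hells* cKO peak. Of proximal *Hells* cKO peaks at start sites and outside tandem repeats, 52 had a strength of 200 or more, and 13 of them had a *Hells* CTRL partner (25%, CI 14.03 to 38.95%), against 31 of 370 in the rest (8.38%, CI 5.76 to 11.7%). From 100 to 200 it was 2 of 92 against 9 of 1429 (2.17% and 0.630%). Among weaker peaks the share was lower near the centromere, with 0 of 159 from 50 to 100 (CI up to 2.29%) against 6 of 2171, and 1 of 297 below 50 (0.337%) against 60 of 5424 (1.11%). This split by strength was chosen after these values were seen and was not tested.

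**Figure D4:**
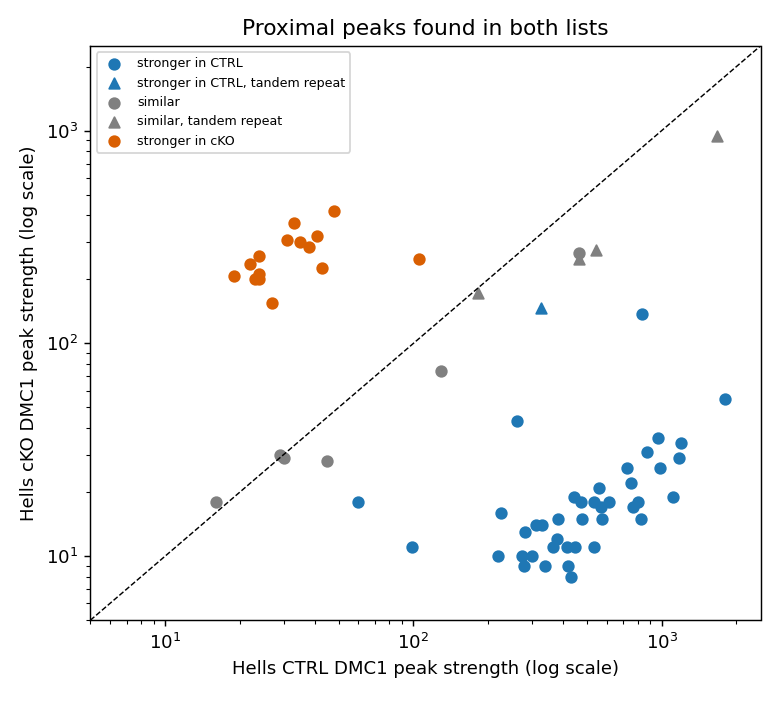
Deposited strength in *Hells* CTRL (horizontal) and *Hells* cKO (vertical), both on log axes, of the 67 proximal common peaks, colored by group; triangles are tandem repeats and the dashed line marks equal strength. The 15 peaks stronger in *Hells* cKO lie at 155 or more on the vertical axis, as do some of the similar group. The grouping by ratio fixes on which side of the dashed line the 15 and the 42 stronger in *Hells* CTRL lie.

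Some members at the very start of the sequence lay in repeats. A tandem repeat was called where 70% or more of the bases within 500 bp recurred at a fixed lag of 10 to 400 bp, within 1 kb of the center. It applied to 11 proximal *Hells* CTRL peaks (1.74%, CI 0.873 to 3.10%), where 0.818% of all autosomal *Hells* CTRL peaks were called, and to 15 proximal *Hells* cKO peaks (1.66%, CI 0.931 to 2.72%), where 0.698% of all were. In the first 1 Mb of assembled sequence 6 of 100 *Hells* CTRL and 10 of 145 *Hells* cKO peaks were tandem repeats. Counting peaks with 50% or more soft-masked (repeat) bases within 500 bp as well, 20 of 100 *Hells* CTRL peaks were flagged, on 9 autosomes, and 15 of 145 *Hells* cKO peaks, on 5 autosomes, where 7.12% of all autosomal *Hells* CTRL peaks and 2.46% of all *Hells* cKO peaks met this wider rule.

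Most of these tandem repeats were on chromosome 9. Its first 40 kb held 5 *Hells* CTRL peaks, of strength 1664, 326, 465, 182 and 545 in order of position, and 8 *Hells* cKO peaks, of strength 945, 209, 63, 154, 147, 249, 173 and 276. All of them had a lag of 234 bp, the unit printed above, which recurred with 84.2 to 96.4% identity. Both lists were thus strong in this array, and the 5 *Hells* CTRL peaks all had a *Hells* cKO partner, 4 of them in the group of similar strength. The array made up 3.96% of the summed proximal *Hells* CTRL strength and 3.82% of the *Hells* cKO sum. The first interval (chr9:2999409-3002176 in *Hells* CTRL) begins in unassembled bases. The annotated genes there, among them Gm10722, Gm10717 and Gm26870, are gene models on the array itself. Reads of near-identical units were kept where they mapped uniquely, and a strength over an array of which the assembly holds a part is not a strength of 1 locus.

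**Figure D5:**
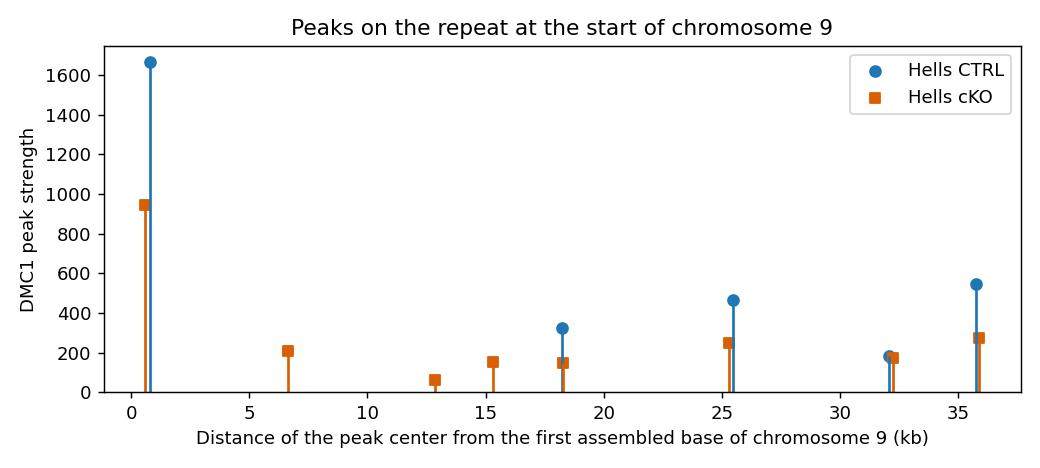
Strength of the 5 *Hells* CTRL (blue circles) and 8 *Hells* cKO (orange squares) peaks on the repeat at the start of chromosome 9, by the distance of their centers from the first assembled base in kb. In both lists the first peak is the strongest, at 1664 and 945.

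Other starts held weaker signals. On chromosome 11, *Hells* CTRL peaks of strength 140 (chr11:3099661-3102400) and 44 (chr11:3102770-3104289) and a *Hells* cKO peak of strength 60 (chr11:3100381-3103058) lay within 5 kb of the first base, with lags of 352, 176 and 352 bp and identities of 68.8%, 74.4% and 62.2%, so that the limit of 70% was passed by the one of strength 44. With the first chromosome 9 peak, the chromosome 11 peaks are the *Hells* CTRL members nearest to the start of an assembled sequence. In *Hells* cKO the order was chromosome 9, chromosome 11 and a peak of strength 47 on chromosome 18. Within 500 bp of their centers the chromosome 11 peaks shared 16.5 to 19.07% of words of 14 bases with the chromosome 9 array. A common peak on chromosome 12 (chr12:3109206-3110793), of strength 466 and 266, shared 23.3%, and one on chromosome 4 (chr4:3088883-3091694), of strength 129 and 74, shared 17.4%. Neither was a tandem repeat by the rule, and both were in the group of similar strength. The remaining tandem repeats of the first 1 Mb were 2 *Hells* cKO peaks on chromosome 12, of strength 66 and 12, both with a lag of 35 bp.

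The strength difference in *Hells* cKO was as large without these repeats. Without tandem-repeat peaks, or without the first 40 kb of chromosome 9, it was again 8.89 points with 16 autosomes higher and 2 lower (exact sign test, adjusted p = 0.0144 in both cases). Without the whole first 1 Mb it was 8.89 points with 16 against 3 autosomes, close to the threshold (exact sign test, adjusted p = 0.0487). At the other edge of the region, the *Hells* CTRL peaks on either side of 10 Mb lay 9.25 kb inside (strength 91) and 11.6 kb outside (24), and the *Hells* cKO peaks 17.3 kb inside (49) and 7.07 kb outside (54).

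The values beyond 10 Mb were partly like those inside. Between 10 and 20 Mb, *Hells* cKO peaks had a density of 4.84 per Mb, the lowest of the first 6 windows of 10 Mb, with 6.17 coding genes per Mb, also the lowest. Their median percentile was 53.5, and that of those at start sites 69.4, close to the 69.7 of the first 10 Mb and above the 59.2 to 67.1 of the 4 windows from 20 to 60 Mb. With the limit set at 20 Mb the *Hells* cKO density ratio was 0.811, lower on 17 of 19 autosomes (exact sign test, adjusted p = 0.00267), and the strength difference was 7.78 points (17 higher, 2 lower, exact sign test, adjusted p = 0.00267). With the limit at 5 Mb the strength difference was 11.4 points (16 higher, 1 lower, exact sign test, adjusted p = 0.00302).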

How the data were processed

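The data were the final DMC1 ChIP-SSDS peak lists of *Hells* CTRL and *Hells* cKO testes, 1 per genotype, made by the authors from 2 merged replicates. The authors trimmed reads to 50 bp, kept a Phred score above 28, mapped to GRCm38/mm10, retained unique, non-duplicated reads and selected MACS peaks by the Irreproducible Discovery Rate. The deposited value is the authors' strength score, described as a fragment count normalized to local background and library size. All scores are whole numbers, so the last step may be absent. Unique mapping thins reads in repeats.

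Sequence and soft-masking came from GRCm38.p6, start sites and genes from GENCODE M21. Assembled bases were those other than N. Sign tests, percentiles, words, tandem repeats and pairs were computed with scipy 1.17.1, numpy 2.4.6 and pandas 2.3.3 under Python 3.11.15, with figures from matplotlib 3.10.9. The density and strength comparisons were tested on simulated data; words, repeats and pairs were not. Members, lists and rules were chosen with earlier results of these data known. Named peaks are, per list, the 5 strongest, up to 10 tandem repeats of the first 1 Mb and the 3 nearest to an assembled start, plus the 3 strongest per common group and the autosomes with the highest and lowest density ratio. Genes named were the 10 with the strongest *Hells* cKO promoter peak, list members and those of named peaks. *Hells* CTRL peaks at start sites and the full group stronger in *Hells* cKO were named after their values were seen. Alternatives changed the limit, repeats, edges, strengths, start-site reach and words. The 5hMeDIP libraries were not analysed here.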

Additional observations from a re-analysis of the deposited data

Results flagged for a closer look

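The strength difference between proximal and other peaks differed between the 2 merged lists. It was higher in *Hells* cKO than in *Hells* CTRL on 17 of 19 autosomes, by a median of 12.03 percentile points (range of the median 10.4 to 12.96 when 1 autosome was left out, two-sided exact sign test over autosomes, p = 0.000729). The test is over autosomes of 1 list per genotype, and age, genotype and list cannot be told apart. With the limit at 10 Mb, the share of peaks with a start site within 1 kb was higher near the centromere by 6.29 points in *Hells* cKO and 4.57 points in *Hells* CTRL, neither past the threshold. At 5 Mb the *Hells* cKO difference was 13.8 points (exact sign test, adjusted p = 0.0700).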

How the results depend on the processing

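Of 117 values under alternative settings, 99 kept their direction and their side of the threshold, and of 209 values with 1 autosome left out 202 did. No paired analysis was possible because the authors had merged the replicates into 1 list per genotype. The *Hells* cKO density ratio fell below 1 at limits of 20 Mb (0.811) and 13 Mb (0.929), without tandem-repeat peaks (0.995), the first 1 Mb (0.985), the distal 5 Mb (0.996), peaks 50% soft-masked (0.983) or the chromosome 9 start (0.997), and for peaks away from start sites (0.843). It was 1.25 at 5 Mb and 1.21 for peaks at or above the median strength. With unassembled positions counted as sequence, the *Hells* CTRL density ratio was 0.773 and the *Hells* cKO one 0.702, by construction, since those positions can hold no peak. The *Hells* CTRL strength difference was 4.09 points at 20 Mb, 0.308 at 13 Mb and 0.616 away from start sites. The *Hells* cKO to *Hells* CTRL ratio was 1.12 for peaks at or above the median strength and 0.793, past the threshold, at 20 Mb. At 20 Mb the start-site share in *Hells* CTRL (2.60 points) and the common share in *Hells* cKO (3.22 points) also passed it. The *Hells* cKO strength difference was 0 for peaks away from start sites. The causes of these changes were not tested. With 1 autosome left out, the ratios lay between 1.07 and 1.14 (*Hells* CTRL density), 0.936, without chromosome 19, and 1.04 (*Hells* cKO density) and 0.843 and 0.931 (their ratio). The strength differences lay between -3.38 and -0.291 points (*Hells* CTRL) and 7.78 and 9.95 (*Hells* cKO, adjusted p 0.00302 to 0.0258, exact sign test). The differences in start-site share lay between 3.45 and 5.42 points (*Hells* CTRL) and 2.04 and 7.83 (*Hells* cKO), those in common share between 1.63 and 2.93 and between 1.55 and 3.00, that in promoters between 3.65 and 10.1, and that in words between -3.29 and -1.52.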
